A study of Homo sapiens with 12 samples.

Results

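Small nucleolar RNAs (snoRNAs) and small Cajal body RNAs (scaRNAs) were examined in RNA sequencing of HK2 cells, an immortalised human proximal tubule line, through the 37 of 62703 listed Ensembl genes that carry the snoRNA or scaRNA biotype and were chosen by their level, at least 1 TPM (a length-scaled share of the transcripts in a library) in 3 or more of 12 libraries. Of the 990 annotated genes of these biotypes in the table, 941 were snoRNA and 49 scaRNA genes, and 28 and 9 of them, respectively, met the rule. By name, 18 members belonged to SNORA (H/ACA class, 215 annotated), 7 to SNORD (C/D class, 314 annotated) and 11 to SCARNA (24 annotated), and 1 was a U3-like gene without a class in its name (437 annotated). The rule used the measured level itself, so that a member could enter through the group in which it was high. In 17 members the level was reached in 3 or more of the 9 libraries outside HG + OE-FGF9, and 20 members entered with the help of the HG + OE-FGF9 libraries.

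The 4 groups had 3 libraries each. NG cells were kept in 5.5 mM glucose and received a control vector, HG cells were kept in 50 mM glucose, si-FGF9 cells received an siRNA against FGF9 in 5.5 mM glucose, and HG + OE-FGF9 cells received an FGF9-overexpressing vector in 50 mM glucose. No vector was described for HG and no non-targeting siRNA for si-FGF9, so that the effect of FGF9 and that of its delivery cannot be told apart in either comparison. The labels call the vector lentiviral, while the results of the study call it adenoviral and give the NG medium mannitol. FGF9, the growth factor that was manipulated, was listed at 0 in all 9 libraries of NG, HG and si-FGF9 and at 3.34, 4.03 and 3.82 TPM in HG + OE-FGF9, so that the knockdown could not be checked in these values.

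Small nucleolar RNAs guide the chemical modification of ribosomal RNA. H/ACA RNAs place pseudouridines with the proteins DKC1, NHP2, NOP10 and GAR1, and C/D RNAs place ribose methyl groups with FBL, NOP56, NOP58 and SNU13. A few, among them U3 (the SNORD3 genes), U8 (SNORD118) and the SNORA73 RNAs, are needed for the cleavage of the ribosomal precursor. Small Cajal body RNAs do the same work on the RNAs of the spliceosome and are held in Cajal bodies by WRAP53. Most of these RNAs are cut out of the introns of host genes, and in their mature form they carry no poly(A) tail.

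The epithelial keratins KRT8, KRT18 and KRT19 were above 200 TPM on average in every group, and so was VIM, which is not an epithelial marker. LRP2 and CUBN, the endocytic receptors of the proximal tubule, and SLC34A1, its phosphate transporter, stayed at or under 0.1 TPM on average. A TPM of 1 or more was listed for 11549 to 13949 genes in each library, and replicates correlated with r between 0.926 and 0.99 over the genes tested. TPM hold no read numbers, so that the depth of each library is unknown. The labels do not say that the 3 libraries of a group came from separate cultures, so that p-values measure only the spread between these libraries. They are shares of the RNA in a library, so that a change in the RNA of each cell and a change in the kinds of cells cannot be told apart.

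The sequences below are those of some of the members that were listed at 0 or nearly so outside 1 group, read 5′ to 3′ from the GENCODE release 29 transcripts, with U written as T. They are given since the results turn on them, and since their lengths and boxes are compared later. SNORD118 (U8) lies on the minus strand at chr17:8173454-8173587 of GRCh38, SNORA12 on the minus strand at chr10:100237156-100237302, SNORA79 on the minus strand at chr14:81202695-81202834, SNORA11D on the plus strand at chrX:52190621-52190748, SCARNA15 on the plus strand at chr15:82755945-82756071 and SCARNA22 on the plus strand at chr4:1974636-1974760. In SNORD118 the capitals mark the C box TGATGA and the D box CTGA. In the others they mark the match to the H box ANANNA nearest the middle and the letters ACA that stand 3 bases before the 3′ end.
SNORD118: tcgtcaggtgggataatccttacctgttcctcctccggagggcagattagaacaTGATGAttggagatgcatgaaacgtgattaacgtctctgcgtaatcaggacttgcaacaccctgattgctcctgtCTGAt
SNORA12: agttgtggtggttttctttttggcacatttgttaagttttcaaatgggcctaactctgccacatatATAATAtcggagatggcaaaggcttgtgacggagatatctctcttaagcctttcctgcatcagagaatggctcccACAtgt
SNORA79: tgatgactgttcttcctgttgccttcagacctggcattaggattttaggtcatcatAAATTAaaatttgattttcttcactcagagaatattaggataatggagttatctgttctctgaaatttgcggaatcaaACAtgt
SNORA11D: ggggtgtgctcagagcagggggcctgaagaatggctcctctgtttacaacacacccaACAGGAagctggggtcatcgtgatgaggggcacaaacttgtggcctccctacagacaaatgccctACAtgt
SCARNA15: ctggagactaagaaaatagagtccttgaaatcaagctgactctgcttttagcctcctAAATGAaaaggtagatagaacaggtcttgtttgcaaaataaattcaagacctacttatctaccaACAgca
SCARNA22: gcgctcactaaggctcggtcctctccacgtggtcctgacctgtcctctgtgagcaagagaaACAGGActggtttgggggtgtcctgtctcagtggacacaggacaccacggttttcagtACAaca

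On the sense strand of the transcripts, ACA stood 3 bases from the end in 14 of the 18 SNORA members (77.8%), in 144 of the 215 annotated SNORA genes (67.0%) and in 305 of all 990 genes (30.8%). The H box pattern was present in 17 of the 18 SNORA members (94.4%), but also in 893 of the 990 genes (90.2%), and the printed match is 1 of 3 to 10 matches in each of these RNAs. TGATGA occurred in all 7 SNORD members and in 232 of the 314 annotated SNORD genes (73.9%), against 348 of the 990 (35.2%). CTGA within the last 15 bases was found in 4 of the 7 SNORD members (57.1%) and in 274 of the 314 (87.3%). TGAG, the letters of the Cajal body box, was found anywhere in 9 of the 11 SCARNA members (81.8%) and in 620 of the 990 genes (62.6%), with no regard to its place in a loop.

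Whether one of these RNAs had a value at all went with its length. None of the 501 snoRNA and scaRNA genes shorter than 125 bases was listed above 0 in any library, whereas 79 of the 489 at 125 bases or longer were (16.2%). The same edge was seen beyond these biotypes, since none of 5491 annotated genes of any kind shorter than 119 bases was listed above 0, and the 22 mitochondrial tRNA genes were at 0 in all libraries. Most of the C/D class lay below it, since 291 of the 314 annotated SNORD genes are shorter than 125 bases and their median length is 81 bases. Of the 23 longer SNORD genes, 10 were listed above 0 (43.5%), as were 47 of 190 longer SNORA genes (24.7%) and 17 of 24 SCARNA genes (70.8%). The members therefore ranged from 125 bases (SCARNA22) to 791 bases (SNORD3B-2), and a value of 0 for a shorter guide cannot be read as its absence from the cells.

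**Figure D1:**
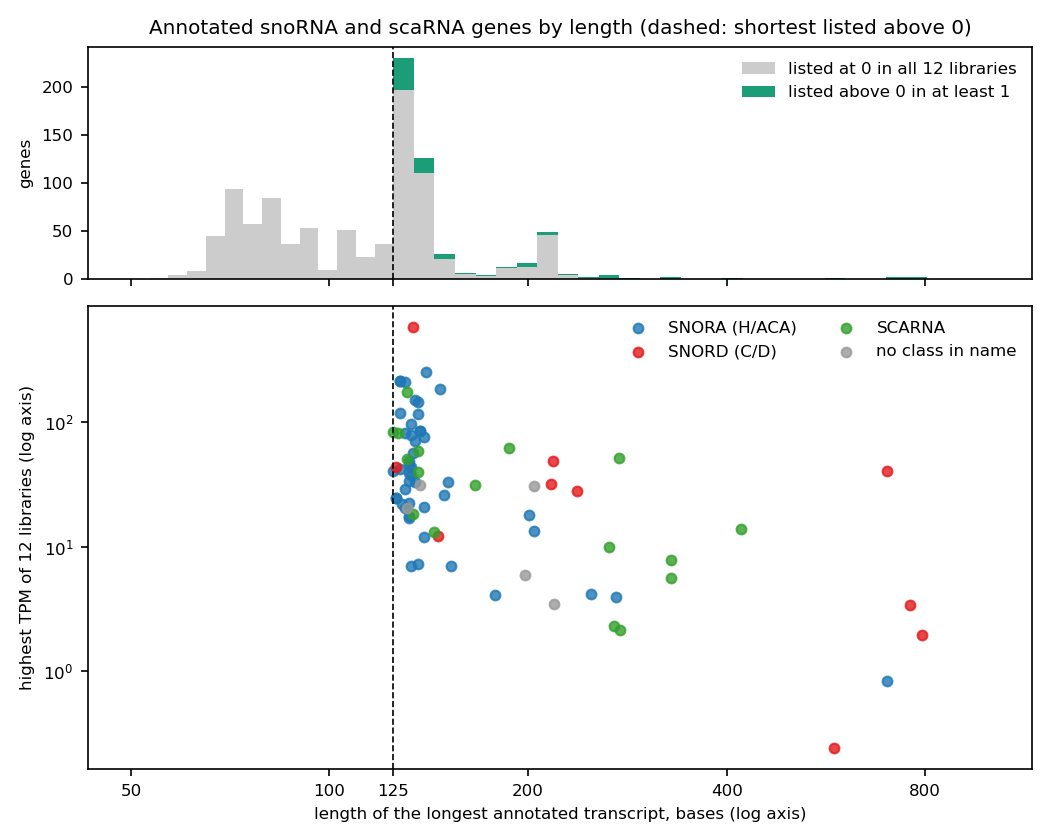
Number of the 990 annotated snoRNA and scaRNA genes by length of the longest transcript (top, grey bars at 0 in all 12 libraries and green bars above 0 in at least 1) and the highest TPM of each gene listed above 0 (bottom, both axes logarithmic, coloured by class). Every gene left of the dashed line at 125 bases is listed at 0, and 79 genes right of it have a value.

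Summed over all 990 annotated genes, without the rule on levels, these RNAs were far more abundant in HG + OE-FGF9 than in the other groups. The sum was 2410.8, 2724.8 and 689.3 TPM in HG + OE-FGF9, against 207.9, 95.4 and 174.1 in HG, 106.1, 215.9 and 565.8 in NG and 157.1, 252.6 and 93.6 in si-FGF9. The 3 HG + OE-FGF9 libraries lay above the other 9, with replicate 3 of HG + OE-FGF9 closest to NG replicate 3. The mean of HG + OE-FGF9, 1940 ± 1100 TPM (SD, n = 3), was 12.2 times the mean of HG, 159 ± 57.7 TPM (SD, n = 3), and 6.56 times that of NG, 296 ± 240 TPM (SD, n = 3). Without NG replicate 3 the latter ratio was 12.1. An exact two-sided permutation test of 3 against 3 libraries gave p = 0.1 for both, the smallest it can give at this number of libraries, and 0.2 after Benjamini-Hochberg adjustment over the 36 such tests. The sums of HG and NG overlapped, as did those of si-FGF9 and NG, with exact permutation p of 0.4 and 0.6.

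The SNORA genes made up most of the sum in every library, and their sum overlapped between HG + OE-FGF9 (1566.7, 1597.3 and 396.3 TPM) and NG (89.9, 185.0 and 486.2). The SNORD sum was 300.2, 664.0 and 172.3 TPM in HG + OE-FGF9, above all of NG (6.3, 13.3 and 8.8), HG (10.5, 9.3 and 59.4) and si-FGF9 (61.1, 54.1 and 5.7). The SCARNA sum, 543.9, 463.4 and 94.7 TPM in HG + OE-FGF9, was likewise above all of NG (4.0, 8.2 and 39.7) and HG (57.8, 6.2 and 7.3). In si-FGF9 it was 3.7, 2.1 and 2.1 TPM, below every NG library, with a ratio of the means of 0.152 (exact permutation p = 0.1), which was 0.432 without NG replicate 3. The number of these genes at 1 TPM or more was also highest in HG + OE-FGF9, with 35, 37 and 32 in HG + OE-FGF9, 13, 11 and 13 in HG, 11, 16 and 19 in NG and 7, 9 and 6 in si-FGF9, where every library was below all of NG. Genes of any kind at 1 TPM or more were likewise fewer in si-FGF9, with 11549 to 12013 in a library, than in NG, with 13795 to 13949.

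**Figure D2:**
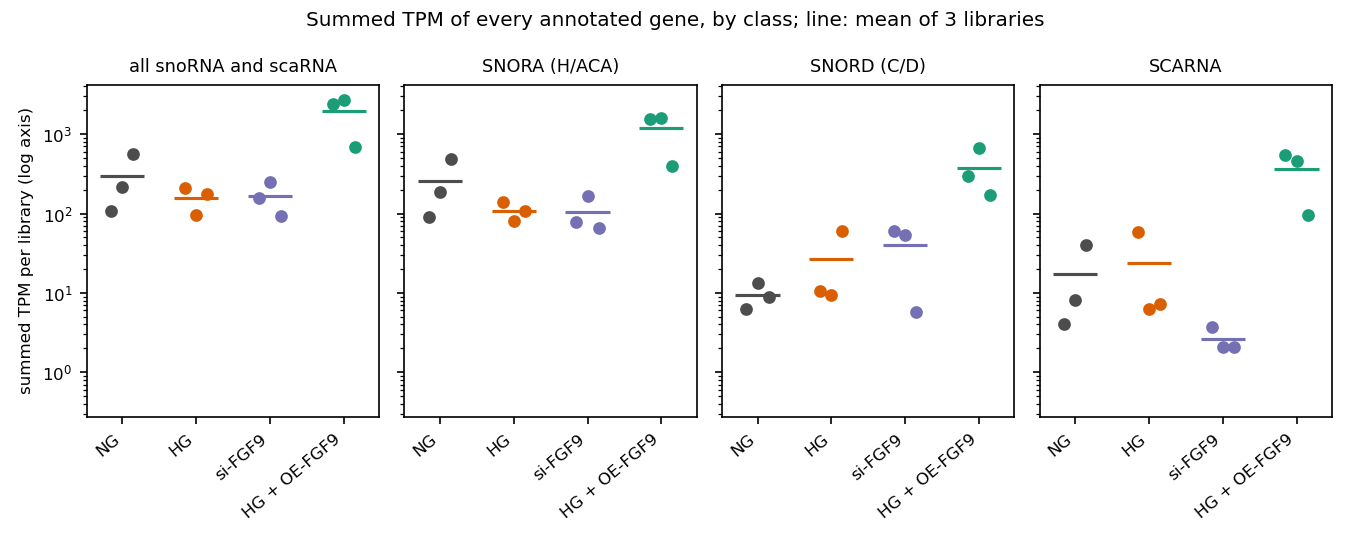
Summed TPM per library (logarithmic axis) over all annotated snoRNA and scaRNA genes and over the SNORA, SNORD and SCARNA genes, with 1 point per library and a line at the mean of the 3 libraries of a group. The HG + OE-FGF9 points stand above those of the other groups in the SNORD and SCARNA panels, and its replicate 3 lies below its other libraries in all panels.

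Other short RNAs without a poly(A) tail moved with them. The snRNA genes summed to 14120, 13910 and 4586 TPM in HG + OE-FGF9, against 67.19 to 435.4 TPM in the other 9 libraries, and replicate 3 was again the lowest of its group. RN7SK, the RNA that holds the elongation factor P-TEFb, averaged 3630 ± 1880 TPM in HG + OE-FGF9 and 57.2 ± 62.9 TPM in HG (SD, n = 3 each). All 5 genes of a list of 13 such RNAs that were tested (RN7SK, RN7SL1, RN7SL2, RMRP and RPPH1) were called higher against HG, and the list summed to 1790 to 5590 TPM against 72.9 to 207 TPM. The mRNAs of the 64 replication-dependent histone genes, which also lack a poly(A) tail, summed to 214 to 345 TPM in HG + OE-FGF9 and 222 to 653 TPM in HG. Of the 35 tested, 10 were called higher and 1 lower, where 2.94% and 2.67% of all genes tested were called. Their median difference was 0.38, against -0.13 over all genes, and a histone gene could also pass the filter through HG + OE-FGF9. Genes of the rRNA biotype summed to 262.0 to 488.9 TPM against 172.7 to 690.0 TPM. How ribosomal RNA was removed in each library is not given in the sources used here, and the part of library preparation in these differences was not tested.

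Markers of other cells varied. The erythroid list, at 11.9 to 30.6 TPM in HG + OE-FGF9 and 1.42 to 2.17 TPM in HG, consisted mostly of HBA1 in HG + OE-FGF9 (21.8 ± 9.38 TPM against 1.12 ± 1.09 TPM in HG, SD, n = 3), with HBB at 0 outside HG + OE-FGF9 and ALAS2 at 0 in all 12 libraries. HBA2 went the other way, at 0.05 ± 0.0866 TPM in HG + OE-FGF9 and 0.783 ± 1.16 TPM in HG (SD, n = 3), and was not called. The endothelial list summed to at most 0.15 TPM. The immune list, at 159 to 162 TPM in HG + OE-FGF9 and 117 to 127 TPM in HG, was almost all CD68, with PTPRC and CD3E near 0. LYZ, of the same list, was at 0.64 to 2.43 TPM in HG + OE-FGF9 and 0.03 to 0.11 TPM in HG. CD79A averaged 0.573 TPM in HG + OE-FGF9 and 0.317 TPM in HG. The fibroblast list, at 11.5 to 22.4 TPM against 17.1 to 40.9 TPM, was mostly LUM, with PDGFRA near 0. The part of these marker differences in the result was not tested.

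**Figure D3:**
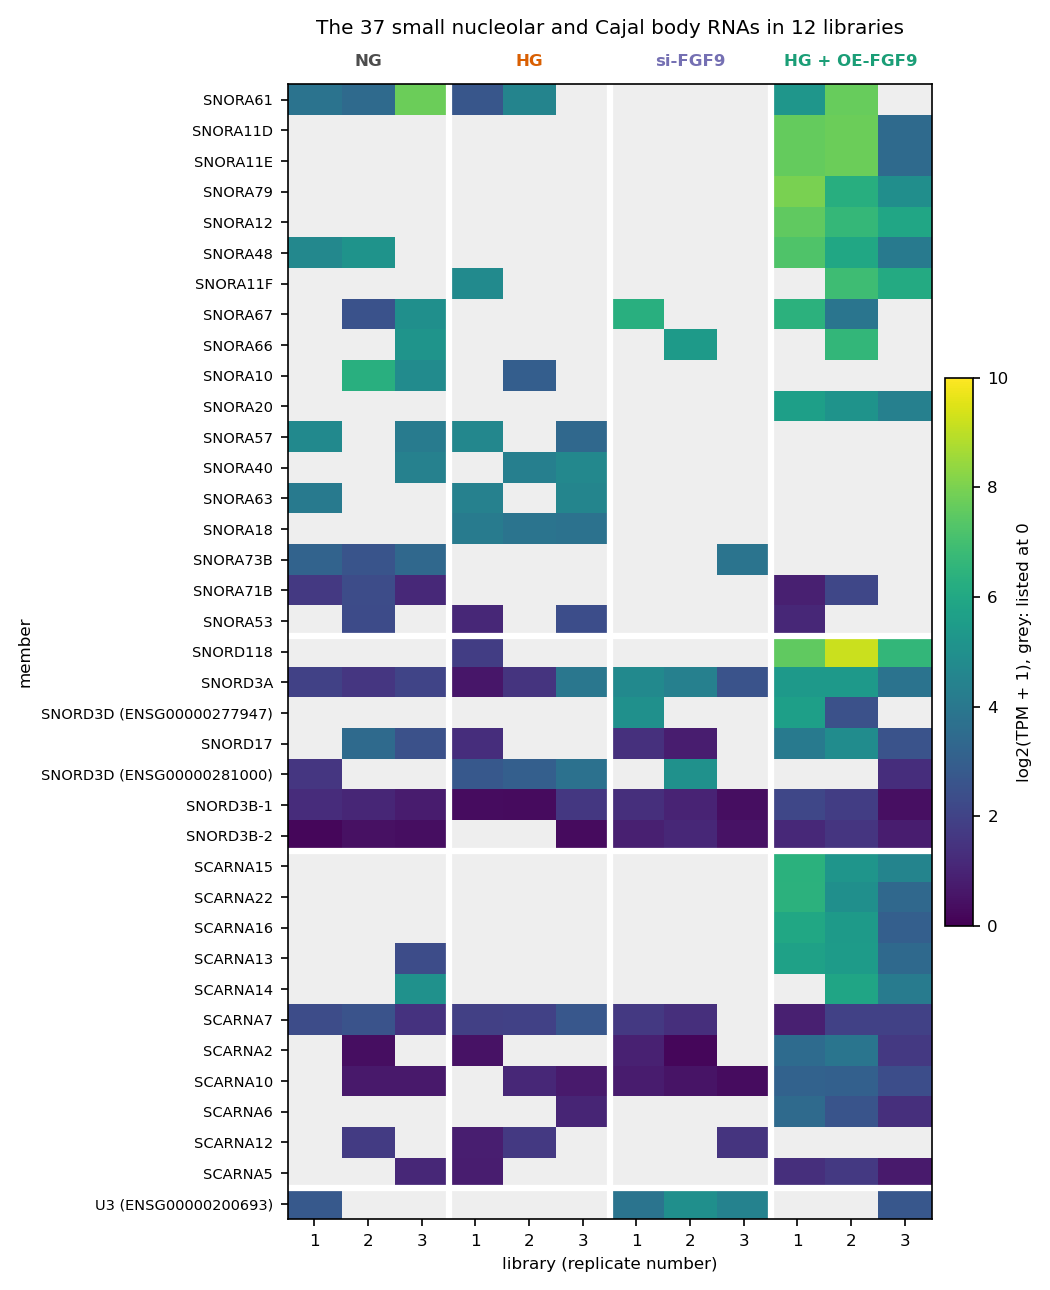
Level of the 37 members in the 12 libraries as log2(TPM + 1), with members in rows by class and libraries in columns by group, and grey for a gene listed at 0. In HG + OE-FGF9, 35 of 111 values are 0, against 225 of 333 in the other libraries, a contrast shaped by the rule that chose the members.

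Among the members, values of 0 were the rule outside HG + OE-FGF9. There, 225 of the 333 values (37 members in 9 libraries) were 0, against 35 of 111 in HG + OE-FGF9, and 8 members were at 0 in all 9 libraries. Nothing is read from this contrast, since 20 members entered with the help of HG + OE-FGF9. Without the rule, 37 to 38 of all 990 annotated genes were above 0 in each HG + OE-FGF9 library, and 10 to 23 in each of the other 9. Under the thresholds of the study, a log2 difference of at least 1 with an unadjusted p under 0.01 in limma on log2(TPM + 1), HG + OE-FGF9 had 17 members called higher and 1 lower against HG, where 2.94% and 2.67% of all 14639 genes tested were called. Of the 17, 15 had entered with the help of HG + OE-FGF9, so nothing is read from that count, and 10 were at 0 in all HG libraries, so that no fold can be given for them. Without HG + OE-FGF9 replicate 1, 2 or 3 the 18 calls became 9, 7 and 11, in part because fewer members then pass the filter on low values (25, 22 and 26 of 37), and with the genes tested kept they were 19, 16 and 20. The 3 HG + OE-FGF9 values lay above all HG values in 16 members and below them in 2. These counts are a description only, since the rule shaped them too and the share over all genes tested was not taken. The median difference was 2.24 over the members and -0.13 over all genes tested, and nothing is read from it either, since the rule let members enter through HG + OE-FGF9. After median-of-ratios scaling of the TPM, the median of all genes moved by 0.11. Then 17 members were called higher and 1 lower, where 3.48% and 1.95% of all genes were called. Nothing is read from this count, for the same reason.

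The only members that can be tested in a comparison are those that meet the rule in the 6 libraries outside it. For HG + OE-FGF9 versus HG these were 9, of which 2, SNORD17 and SNORD3A, were called higher and none lower. SNORD17, a C/D guide for the large ribosomal RNA encoded in an intron of SNX5, had 16.11, 28.17 and 4.97 TPM in HG + OE-FGF9, 1.46, 0 and 0 in HG, 0, 9.87 and 4.62 in NG, and 1.61, 0.72 and 0 in si-FGF9. The HG + OE-FGF9 values did not overlap those of HG but did overlap those of NG. Its log2 difference from HG was 3.41 ± 0.80 (SE), with an adjusted p of 0.0215 (limma with Benjamini-Hochberg adjustment), and it was called in all 27 alternative analyses, with adjusted p from 0.0076 to 0.129. SNORD3A (U3) had 40.5, 40.57 and 12.9 TPM in HG + OE-FGF9 and 0.53, 1.86 and 14.65 in HG, which overlap. Its difference of 2.82 ± 0.78 (SE, adjusted p = 0.0418) was lost in 8 of 27 alternatives (adjusted p from 0.00354 to 0.202 over all 27), among them those without HG replicate 1 (adjusted p = 0.165), HG replicate 2 (0.0632), HG + OE-FGF9 replicate 1 (0.189) or HG + OE-FGF9 replicate 2 (0.186). The other 7, SNORA61, SNORA67, SNORA71B, SNORA73B, SCARNA7, SNORD3B-1 and the U3-like gene, were not called.

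The C/D members outside the U3 family were SNORD118 and SNORD17. SNORD118 (U8), which is needed to mature the large ribosomal subunit and overlaps an exon of some transcripts of TMEM107, reached the highest level of all members. It was listed at 189.91, 586.24 and 96.27 TPM in HG + OE-FGF9, at 2.53, 0 and 0 in HG, and at 0 in all libraries of NG and si-FGF9. Even its lowest HG + OE-FGF9 value stood far above its only value elsewhere, while TMEM107 was at 8.48 ± 0.715 TPM in HG + OE-FGF9 and 7.88 ± 1.48 TPM in HG (SD, n = 3). The fitted difference for SNORD118 was 7.19 ± 0.58 (SE), and it entered the set through HG + OE-FGF9.

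U3 was spread over several near-identical gene copies, so that the value of any 1 copy is uncertain. SNORD3A, SNORD3B-1 and SNORD3B-2 are annotated at 699, 758 and 791 bases, well beyond the 218 bases of SNORD3D. The 2 SNORD3D identifiers lie at the same place on chromosome 17 and share 217 of 218 bases (99.5%). They were listed above 0 together in none of the 12 libraries: ENSG00000277947 had 31.19 TPM in si-FGF9 replicate 1 as well as 49.02 in replicate 1 and 4.6 in replicate 2 of HG + OE-FGF9, and ENSG00000281000 had 1.98 in NG replicate 1, 5.7, 7.22 and 12.26 in HG, 31.97 in si-FGF9 replicate 2 and 1.49 in HG + OE-FGF9 replicate 3. Summed with the other SNORD3 genes, U3 came to 6.3, 3.44 and 4.13 TPM in NG, 6.49, 9.31 and 29.22 in HG, 59.51, 53.42 and 5.66 with si-FGF9, and to 94.14, 49.64 and 15.45 with HG + OE-FGF9. NG was the lowest group with a narrow range, and its highest library lay above the lowest of si-FGF9 (5.66), while HG and HG + OE-FGF9 overlapped through HG replicate 3.

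**Figure D4:**
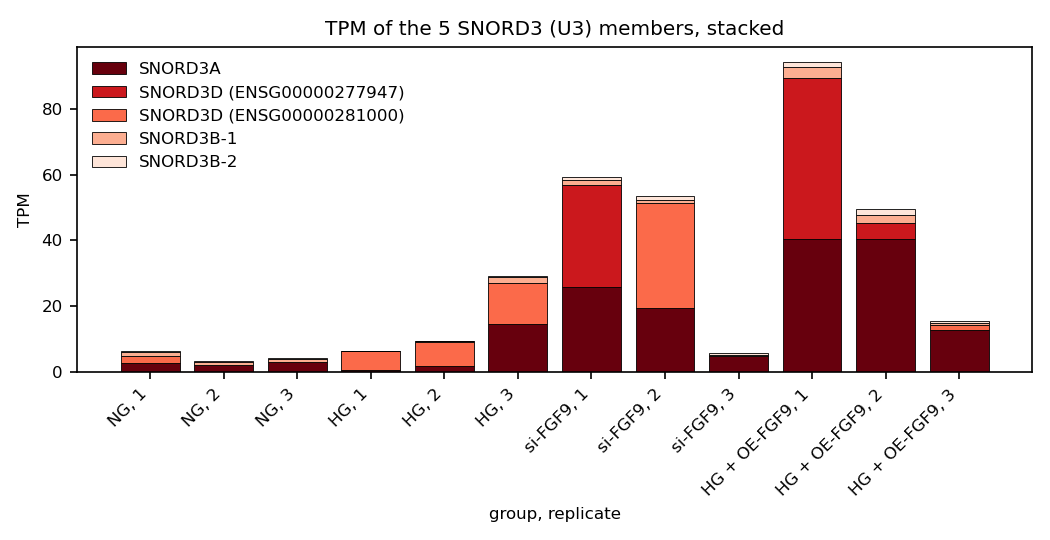
TPM of the 5 SNORD3 (U3) members in each library, stacked (bars start at 0). The 2 SNORD3D identifiers replace each other from library to library, and the total is highest in HG + OE-FGF9 replicate 1 and at most 6.3 TPM in NG.

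SNORD3A alone was at 2.77, 1.98 and 3.15 TPM in NG and at 25.72, 19.31 and 4.97 TPM in si-FGF9, without overlap. Its difference of 2.04 ± 0.78 (SE) had an adjusted p of 0.0334 in limma with Benjamini-Hochberg adjustment, but its unadjusted p of 0.0222 was over the threshold of 0.01. Against NG it was called higher in HG + OE-FGF9, by 3.00 ± 0.78 (SE, adjusted p = 0.00488, limma). That call was lost in 4 of 27 alternatives, those without HG + OE-FGF9 replicate 1 (adjusted p = 0.0214) or replicate 2 (0.0212), each also with the genes tested kept, all with a difference of 2.74. SNORD3B-1 did not pass the test in any of the 4 comparisons and stayed between 0.23 and 3.37 TPM.

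Of the 18 H/ACA members, 8 entered with the help of HG + OE-FGF9, and 5 of these were at 0 in the other 9 libraries. SNORA79, in an intron of GTF2A1, was listed at 255.11, 75.84 and 29.67 TPM in HG + OE-FGF9. SNORA12, in an intron of CWF19L1, had 186.29, 99.29 and 58.73 TPM there. SNORA20, in TCP1, a chaperonin subunit gene, had 48.67, 33.81 and 19.66 TPM. SNORA11D and SNORA11E, in the neighbouring genes MAGED4 and MAGED4B, have the same 128 bases and the same values, 197.18, 215.44 and 9.99 TPM, so that they are 1 measurement under 2 identifiers. These 5 genes were listed at 0 in NG, HG and si-FGF9, and all 5 were highest in replicate 1 or 2 of HG + OE-FGF9 and lowest in its replicate 3.

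SNORA11F, with 93.0% identity to SNORA11D, did not follow it. It was at 0, 118.03 and 68.36 TPM in HG + OE-FGF9 and at 26.54 TPM in HG replicate 1. SNORA48, in EIF4A1, the gene of a helicase of translation initiation, was at 151.98, 60.29 and 16.4 TPM in HG + OE-FGF9, at 0 in HG and si-FGF9 and at 24.35, 34.07 and 0 TPM in NG, so that the former 3 were above HG but overlapped NG. SNORA66, in RPL5, was listed above 0 only in NG replicate 3 (35.6 TPM), si-FGF9 replicate 2 (43.0) and HG + OE-FGF9 replicate 2 (97.72).

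SNORA61, in SNHG12, had the highest mean of the class without a clear order among groups. It was at 13.05, 9.94 and 212.53 TPM in NG, 5.45, 21.68 and 0 in HG, and 37.12, 203.95 and 0 in HG + OE-FGF9, and at 0 in all of si-FGF9. The si-FGF9 libraries were below all of NG, with an unadjusted p of 0.0131 that misses the threshold of 0.01 (limma, adjusted p = 0.0206). SNORA67, also in EIF4A1, was at 0, 4.71 and 30.33 TPM in NG, at 78.23 in si-FGF9 replicate 1, and at 85.62, 13.79 and 0 in HG + OE-FGF9.

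The remaining H/ACA members had most of their values outside HG + OE-FGF9. SNORA18, in TAF1D, the gene of a subunit of the RNA polymerase I initiation factor, was listed in HG at 17.0, 13.26 and 12.78 TPM and at 0 in the other 9 libraries. It entered the set through HG alone, so its contrasts with HG carry no test. SNORA40, which lies in the same host, was at 0, 19.05 and 24.42 TPM in HG, at 20.29 in NG replicate 3 and at 0 in the rest. SNORA63, in EIF4A2, was at 20.0, 0 and 22.51 TPM in HG and at 15.97 in NG replicate 1. SNORA57, in CSKMT, was at 23.92, 0 and 9.43 TPM in HG and at 26.07, 0 and 17.05 in NG. All 4 of these genes were listed at 0 in every si-FGF9 and HG + OE-FGF9 library.

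SNORA73B, in an intron of SNHG3, is the U17-type RNA needed for the small ribosomal subunit. It was at 8.1, 5.12 and 9.49 TPM in NG and at 13.4 in si-FGF9 replicate 3, and at 0 in the other si-FGF9 libraries and in all of HG and HG + OE-FGF9. SNORA71B, in an intron of SNHG17, was at 2.2, 3.95 and 1.25 TPM in NG, at 0.82, 3.38 and 0 in HG + OE-FGF9 and at 0 in HG and si-FGF9. SNORA10, in the ribosomal protein gene RPS2, was at 0, 78.43 and 27.42 TPM in NG and at 6.98 in HG replicate 2. SNORA53, in SLC25A3, was at 3.91 TPM in NG replicate 2, at 1.17, 0 and 4.13 in HG and at 1.18 in HG + OE-FGF9 replicate 1. These genes were listed in different libraries of a group, and of the 4, SNORA73B and SNORA71B alone were above 0 in every NG library.

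Of the 11 SCARNA members, 9 entered with the help of HG + OE-FGF9. SCARNA15, in an intron of SNHG21, was at 82.59, 35.98 and 21.95 TPM in HG + OE-FGF9, SCARNA22, in NSD2, at 83.83, 30.49 and 9.35, and SCARNA16, in SEC14L1, at 61.69, 42.49 and 7.23. These 3 were listed at 0 in the other 9 libraries. SCARNA13, in SNHG10, was at 51.6, 43.32 and 9.6 TPM in HG + OE-FGF9 and at 3.96 in NG replicate 3. The order of the 3 HG + OE-FGF9 libraries was the same in these 4 RNAs, with replicate 1 highest and replicate 3 lowest.

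SCARNA2, SCARNA10 and SCARNA6 were present at low levels in other groups. SCARNA2 was at 10.35, 13.9 and 2.17 TPM in HG + OE-FGF9 and at most 0.89 TPM elsewhere. SCARNA10 (U85), a guide with both C/D and H/ACA boxes for the U5 RNA of the spliceosome, was at 7.87, 7.43 and 4.1 TPM in HG + OE-FGF9, 0, 1.16 and 0.66 in HG, 0, 0.62 and 0.6 in NG and 0.71, 0.43 and 0.25 in si-FGF9. SCARNA6 was at 10.02, 5.0 and 1.55 TPM in HG + OE-FGF9 and at 1.05 in HG replicate 3. In all 3, the HG + OE-FGF9 values lay above every other library. The fitted differences from HG were 2.86 ± 0.47, 2.24 ± 0.31 and 2.12 ± 0.43 (SE), given as a description.

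SCARNA14, in TIPIN, was at 0, 58.35 and 17.04 TPM in HG + OE-FGF9 and at 32.19 in NG replicate 3. SCARNA5, which shares the host ATG16L1 with SCARNA6, was at 1.55, 2.13 and 0.66 TPM in HG + OE-FGF9, at 1.18 in NG replicate 3 and at 0.76 in HG replicate 1. SCARNA7 (U90), in KPNA4, was listed above 0 in all but 1 library, at 3.95, 4.95 and 1.79 TPM in NG, 2.74, 2.85 and 5.55 in HG, 2.14, 1.52 and 0 with si-FGF9, and 0.82, 2.82 and 2.8 with HG + OE-FGF9. Its difference between si-FGF9 and NG, -1.13 ± 0.46 (SE), had an unadjusted p of 0.0296, over the threshold (limma, adjusted p = 0.0433). SCARNA12 (U89), in PHB2, was at 2.31 TPM in NG replicate 2, 0.78 and 2.19 in HG replicates 1 and 2 and 1.83 in si-FGF9 replicate 3, and at 0 in HG + OE-FGF9. SCARNA9, which has an antisense biotype in the annotation and so fell outside the rule, was at 5.4, 9.87 and 5.75 TPM in NG, 4.74, 3.37 and 5.6 in HG, 0.78, 0.36 and 0.63 with si-FGF9, and 1.0, 1.38 and 1.71 with HG + OE-FGF9, a pattern unlike that of SCARNA15 or SCARNA22.

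The U3-like gene ENSG00000200693, of 204 bases on chromosome 14, shares 73.7% of aligned bases with SNORD3D. It was at 13.48, 30.9 and 20.59 TPM in si-FGF9, at 6.01 in NG replicate 1, at 5.65 in HG + OE-FGF9 replicate 3 and at 0 in the rest. The si-FGF9 values lay above all others, and it entered the set through them.

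The contrasts with NG share its 3 libraries, so that the counts below are not independent of each other. In HG + OE-FGF9 versus NG, 14 members were called higher and 1 lower, where 7.01% and 32.7% of all genes were called, and of the 6 members that meet the rule outside these groups only SNORD3A was called. In HG versus NG, 1 member was called higher (SNORA18) and 2 lower (SNORA73B and SNORA71B), against 1.65% and 22.7% of all genes. In si-FGF9 versus NG, 1 was called higher (the U3-like gene) and 1 lower (SNORA71B), against 5.36% and 42.2%. Without HG + OE-FGF9 replicate 1, 2 or 3 the 15 calls against NG became 6, 6 and 8. Without NG replicate 1 the 3 calls of HG became 5, and the 2 calls of si-FGF9 became 4 without NG replicate 1, si-FGF9 replicate 3 or HG + OE-FGF9 replicate 3. SNORA73B was no longer called when the TPM were scaled by the median of ratios. All 5 of the calls in HG and si-FGF9 concern genes whose own group of high values brought them into the set. Of the members that meet the rule outside the comparison, limma called 0 of 22 in HG versus NG and 0 of 23 in si-FGF9 versus NG, with 1 and 4 at an unadjusted p under 0.05. Of these, 9 and 12 were listed at 0 in all 6 libraries of the comparison and could not be called. As a description under the same rule, the median difference was 1.67 over the members and -0.51 over all genes in HG + OE-FGF9 versus NG, 0 and -0.39 in HG versus NG, and 0 and -0.79 in si-FGF9 versus NG. With the TPM scaled by the median of ratios, these medians of all genes moved by 0.55, 0.42 and 0.82, and 17.1% and 17.8%, 7.38% and 8.57%, and 19.3% and 18% of all genes were called higher and lower.

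In HG + OE-FGF9 versus HG, no host gene was called with the RNA it contains. Of the 37 members, 32 lie within 28 annotated host genes on the same strand, 15 of them in introns of every annotated transcript. Among the 17 members called higher in HG + OE-FGF9 versus HG, 15 have a host, and the host of SCARNA2, a long noncoding gene, was listed at 0 in all libraries. None of the hosts of the other 14 was called in either direction, with differences from -1.01 (MAGED4) to 0.68 (SNHG21). CWF19L1, the host of SNORA12, was at 11.9 ± 2.33 TPM in HG + OE-FGF9 and 12.4 ± 2.01 TPM in HG (SD, n = 3). Of the 26 hosts tested, 0 were called in that comparison, with a median of -0.06. Of all genes tested, 2.94% were called higher there and 2.67% lower, so that 0 of 26 is near the share over all genes. Of the same 26 hosts, 5 were called lower in HG versus NG and 12 lower and 2 higher in si-FGF9 versus NG. Of all genes, 22.7% and 42.2% were called lower in these comparisons, and 5.36% higher in si-FGF9 versus NG. For HG + OE-FGF9 versus NG, 11 of the 26 hosts were called lower and 0 higher, against 32.7% and 7.01% of all genes.

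The pairs of member and host that fell in the same comparison were few. SNHG3 was at 100 ± 42.7 TPM in NG and 25.0 ± 6.92 TPM in HG (SD, n = 3), a log2 difference of -1.91 (limma, Benjamini-Hochberg adjusted p = 0.00113), beside SNORA73B at 5.12 to 9.49 TPM and 0. TAF1D moved the other way from SNORA18, with 247 ± 30.8 TPM in NG and 110 ± 71.2 TPM in HG and a difference of -1.34 (adjusted p = 0.0121, limma). SNHG17 was at 24.1 ± 0.359 TPM in NG and 24.7 ± 8.09 TPM in HG, beside SNORA71B at 1.25 to 3.95 TPM and 0.

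**Figure D5:**
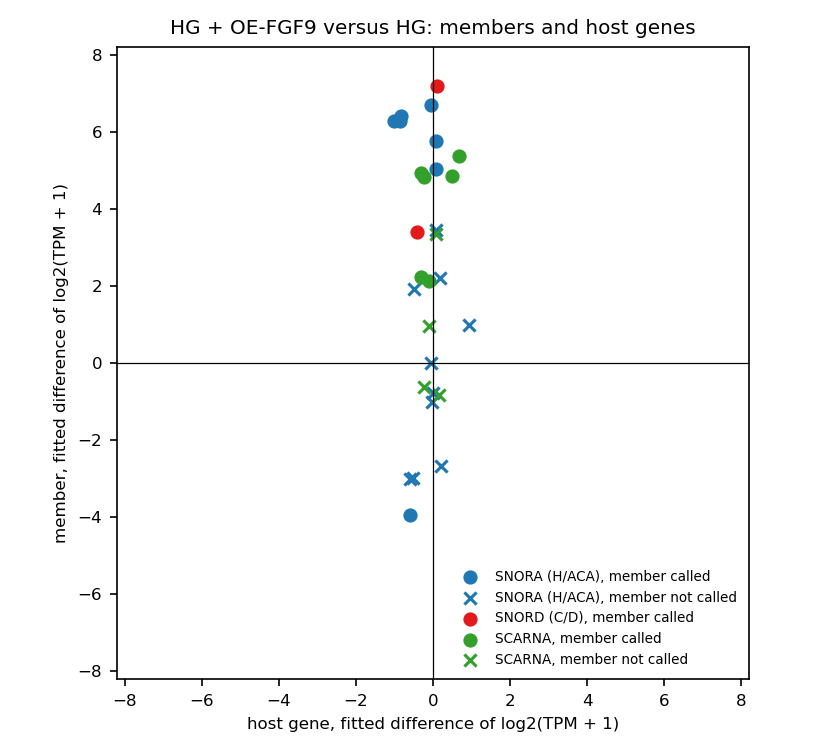
Fitted difference between HG + OE-FGF9 and HG, in log2(TPM + 1), of each member (vertical axis) against that of its host gene (horizontal axis), coloured by class, with circles for members that were called. The hosts of called members lie between -1.01 and 0.68, and the members at 0 in HG have a height that depends on the pseudocount.

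The mRNAs of the proteins that carry and process these RNAs had no call in HG + OE-FGF9 versus HG among the 4 C/D core genes, the 4 H/ACA core genes, the 10 Cajal body genes and the 8 processing and decay genes. Of all genes tested, 2.94% were called higher and 2.67% lower there, so that the lack of calls in such short lists is near the share over all genes. FBL, the methyltransferase, was at 514 ± 11.6 TPM in HG + OE-FGF9 and 491 ± 211 TPM in HG, and DKC1, the pseudouridine synthase, at 44.1 ± 11.2 and 40.5 ± 8.76 TPM (SD, n = 3). The median differences of these lists were 0.28, 0.19, -0.23 and -0.24, against -0.13 over all genes. Of the 11 assembly genes, NOPCHAP1, an assembly cofactor, was called higher, at 28.1 ± 10.1 TPM against 11.5 ± 0.99 TPM.

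In HG and si-FGF9 against NG, several of these genes were lower, in comparisons in which 22.7% and 42.2% of all genes were called lower and 1.65% and 5.36% higher. In HG versus NG, 1 of 4 C/D core genes, 0 of 4 H/ACA core genes, 2 of 11 assembly genes, 3 of 10 Cajal body genes and 5 of 8 processing and decay genes were called lower and 0 higher. In si-FGF9 versus NG the counts were 1, 2, 6, 9 and 7, again with 0 higher. XRN2, an exonuclease that trims snoRNA precursors, was at 61.2 ± 1.86 TPM in NG and 19.8 ± 5.42 TPM in HG, and COIL, the scaffold of Cajal bodies, at 10.3 ± 0.772 and 5.44 ± 0.785 TPM (SD, n = 3), the latter not called in HG. WRAP53, which brings scaRNAs to Cajal bodies, had 7.6 ± 1.14 TPM in NG and 14.0 ± 4.27 TPM in HG and was not called in HG versus NG. For HG + OE-FGF9 versus NG, 32.7% of all genes were called lower and 7.01% higher. The counts called lower, in the same order of lists, were 1, 0, 3, 6 and 5. NOP56, NOPCHAP1 and WRAP53 (16.6 ± 2.11 TPM in HG + OE-FGF9) were called higher there.

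At the edge of the rule, 20 members reached 1 TPM in exactly 3 libraries, 9 of them in the 3 HG + OE-FGF9 libraries, and 14 other genes reached it in exactly 2. Of those 14, 9 reached it in replicate 1 and replicate 2 of HG + OE-FGF9, among them SCARNA8 (151.55 and 175.5 TPM), SNORA49 (42.03 and 116.69) and SNORA80B (42.03 and 145.87), which were at 0 in all other libraries. Some genes of the same length had values in whole steps within a library. In HG + OE-FGF9 replicate 2, SCARNA14 (58.35 TPM) had 8.0 times the value of SNORA58B (7.29), which is also 136 bases long, and in HG + OE-FGF9 replicate 1 SCARNA8 had 3.0 times that of SCARNA20 (50.52). In HG + OE-FGF9 replicate 3, SNORA20 and SNORA38, both of 132 bases, were listed at the same 19.66 TPM. Other pairs did not stand in whole steps, such as SNORA66 at 3.31 times SNORA9 in HG + OE-FGF9 replicate 2.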

How the data were processed

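Total RNA was extracted from HK2 cells, and cDNA of 12 libraries, 3 in each of 4 groups taken from the labels, was sequenced on a HiSeq3000. Whether RNA with a poly(A) tail was selected is not given in the sources used here. The deposited values are TPM that the authors computed for 62703 Ensembl genes. The submitters' processing notes name Bowtie 0.12.2 and a mouse build, without their role, and the quantifier and the human build are not given in the sources used here. Biotypes, lengths, hosts and sequences were taken from GENCODE release 29 (GRCh38), which matched 58279 of the identifiers, and no coordinate of the files was used. TPM keep no read numbers, so the precision set by depth is unknown.

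The 14639 genes that reached a TPM of 1 in 3 or more libraries were fitted as log2(TPM + 1) with limma 3.58.1 (R 4.3.3), with a mean-variance trend, group as the only term and all 12 libraries. A gene was called at an absolute log2 difference of at least 1 and an unadjusted p under 0.01, and adjusted p are Benjamini-Hochberg values over all genes tested. A difference on this scale understates the change of low genes. Library sums over all 990 annotated genes were compared with exact two-sided permutation tests (scipy 1.17.1). Since the rule for members used the levels, p-values are given only for members that meet it in 3 or more of the 6 libraries outside a comparison. Values in every library are given for the 4 members of highest mean in each class, those reaching the level outside HG + OE-FGF9 and those called in HG or si-FGF9 versus NG, and further members were named after their values were seen. The members and gene lists were chosen with earlier results of these data known. The fit was tested on simulated data. Alternatives changed the filter, pseudocount, threshold, scaling, trend, libraries and replicate block. Some sequences are not reported here.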

Additional observations from a re-analysis of the deposited data

Results flagged for a closer look

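The snoRNA and scaRNA genes that did not meet the rule on levels, which enter no comparison of members, also had a signal in HG + OE-FGF9 above that of the control libraries. They summed to 639.2, 681.9 and 277.7 TPM in replicates 1, 2 and 3 of HG + OE-FGF9, against 0.1, 54.3 and 163.4 TPM in NG. The part of library preparation in this difference was not tested.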

How the results depend on the processing

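The numbers of members called were 18 in HG + OE-FGF9 versus HG, 15 in HG + OE-FGF9 versus NG, 3 in HG versus NG and 2 in si-FGF9 versus NG. With 1 library left out and the filter applied anew they ranged from 7 to 19, 6 to 18, 2 to 5 and 2 to 4, and without 1 HG + OE-FGF9 library with the genes tested kept from 16 to 20 and 15 to 17 in the first 2. With the filter on low values applied to the 9 libraries outside HG + OE-FGF9, which leaves 17 members tested, 3 and 2 were called in the first 2 comparisons. At an unadjusted p under 0.05, 5 were called in HG versus NG and 9 in si-FGF9 versus NG, where an adjusted p under 0.05 gave 8, a pseudocount of 0.1 gave 4 and a fit of the 6 libraries of the comparison gave 4. The shares of all genes called under these settings were not taken, so nothing is read from these counts. At the main thresholds, 1.65% and 22.7% of all genes were called higher and lower in HG versus NG. In si-FGF9 versus NG the shares were 5.36% and 42.2%. Same-numbered libraries did not deviate together (correlations from -0.439 to 0.248, 3 of 18 above 0.1), so the numbers are not taken to pair them. With the replicate block, 18, 17, 4 and 5 members were called. The difference in summed TPM between HG + OE-FGF9 and HG stayed between 1390 and 2410 TPM without 1 library. The ratio of the means ranged from 9.74 to 16.1 against HG and from 4.97 to 12.1 against NG, and that of the SCARNA sum in si-FGF9 versus NG from 0.11 to 0.432. No result reversed its direction in the alternatives run. The alternatives on these ratios, genes tested kept, the filter on 9 libraries and SNORA11D and SNORA11E counted once were chosen after seeing the data. Apart from the construction of each alternative, the cause of a change was not tested. Depth is unknown, and genes shorter than 125 bases had no value.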
